A study of Mus musculus with 2 samples.

Results

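The 10 genes described here encode proteins of the neutrophil's granules and of its late maturation: Ltf, Lcn2, Camp, Ngp, Cd177, Ly6g, Pglyrp1, Padi4, Cybb and Hdc. They were chosen by name and found by exact symbol among the 55357 gene entries of the deposited matrix, each of the 10 once. The measurements are droplet single-cell RNA-seq of tumours of RENCA, a mouse kidney cancer line, engrafted in the kidney of BALB/c mice. One library is labelled SMYD3 knockdown and 1 is labelled WT, the control tumours of the series text. SMYD3 is a lysine methyltransferase, and the labels place the knockdown in the engrafted RENCA cells, while neutrophils come from the host. The number of animals behind each library, the knockdown construct and the age and sex of the animals were not given in the sources used here.

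Neutrophils build their granules in the bone marrow in waves. Primary granules with myeloperoxidase and elastase come first, then secondary granules with lactoferrin, lipocalin and cathelicidin, then gelatinase granules and secretory vesicles. Granule mRNAs are made mostly in the precursors and decline as the cell matures while the proteins stay stored, so a mature neutrophil can carry a granule protein with little of its mRNA.

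The genes lie on 6 chromosomes, with coordinates here from GENCODE vM21 on GRCm38. Ltf, Ngp and Camp, whose proteins are stored in secondary granules, share a stretch of chromosome 9: Camp at chr9:109847379-109849617 (minus strand), Ngp at chr9:110419747-110423012 (plus strand) and Ltf at chr9:111019271-111042767 (plus strand). The gaps are 570.1 kb from Camp to Ngp and 596 kb from Ngp to Ltf. Chromosome 2 holds Lcn2 at chr2:32384633-32388252 (minus strand) and Hdc at chr2:126593667-126619299 (minus strand), and chromosome 7 holds Pglyrp1 at chr7:18871331-18890459 (plus strand) and Cd177 at chr7:24743983-24760311 (minus strand). The remaining genes are Ly6g at chr15:75155240-75159126 (plus strand), Padi4 at chr4:140745865-140774236 (minus strand) and Cybb at chrX:9435252-9487771 (minus strand). No other annotated gene overlapped any of the 10.

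All 10 genes matched RefSeq's promoters of GRCm38.p6, 300 bases from 250 before to 50 after the start that RefSeq gives. That start lay downstream of the first base of the GENCODE gene by 13359 bases in Pglyrp1, 18447 in Cybb, 621 in Hdc, 513 in Lcn2 and 161 in Camp, and by less than 100 in the other 5. C/EBP factors and PU.1 drive granule and myeloid genes during neutrophil development. A C/EBP-type motif, spelled TTGCNNAA on one strand or TTNNGCAA on the other, was in the promoter of 4 of the 10 genes (Ltf, Lcn2, Ngp and Ly6g) and in 10.8% of all 32851 promoters of the table. A PU.1-type motif, GAGGAA or TTCCTC, was in 6 of the 10 (Ltf, Lcn2, Cd177, Ly6g, Pglyrp1 and Cybb) and in 28.3% of all promoters, and no match of one motif overlapped a match of the other in these 10 genes. A match is a run of letters and not a measured binding site. Ngp, Ly6g and Lcn2 had their highest level in the same neutrophil state and Ltf did not. Pglyrp1, Padi4 and Hdc were also highest in that state but had no C/EBP-type match. The 4 promoters with a C/EBP-type match are shown. They are printed from 5′ to 3′ on the gene's strand with the C/EBP-type match in capitals, for Ly6g from the first of its starts in the table. The promoter from the other start of Ly6g held no C/EBP-type match. A gene was counted if any of its promoters matched, while the shares of all promoters count each promoter by itself. Ngp is chr9:110419558-110419857, plus strand, Ly6g is chr15:75155011-75155310, plus strand, Lcn2 is chr2:32387690-32387989, minus strand, and Ltf is chr9:111019042-111019341, plus strand.
Ngp: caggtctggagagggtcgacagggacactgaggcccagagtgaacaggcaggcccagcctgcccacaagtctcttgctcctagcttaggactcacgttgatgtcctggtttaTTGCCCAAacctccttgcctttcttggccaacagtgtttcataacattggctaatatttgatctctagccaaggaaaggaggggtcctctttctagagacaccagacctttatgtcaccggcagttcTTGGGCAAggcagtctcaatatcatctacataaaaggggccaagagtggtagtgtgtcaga
Ly6g: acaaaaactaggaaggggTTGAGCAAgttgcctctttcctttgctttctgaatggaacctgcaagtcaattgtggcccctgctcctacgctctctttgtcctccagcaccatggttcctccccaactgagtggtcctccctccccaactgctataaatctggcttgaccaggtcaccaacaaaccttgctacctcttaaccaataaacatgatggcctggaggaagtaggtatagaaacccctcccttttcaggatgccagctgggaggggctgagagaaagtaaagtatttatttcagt
Lcn2: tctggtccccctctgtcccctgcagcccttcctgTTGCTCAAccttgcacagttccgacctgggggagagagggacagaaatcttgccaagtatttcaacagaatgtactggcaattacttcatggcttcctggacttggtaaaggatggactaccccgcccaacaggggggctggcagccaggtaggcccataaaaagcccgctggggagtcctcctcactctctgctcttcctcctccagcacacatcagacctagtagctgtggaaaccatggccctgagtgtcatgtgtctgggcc
Ltf: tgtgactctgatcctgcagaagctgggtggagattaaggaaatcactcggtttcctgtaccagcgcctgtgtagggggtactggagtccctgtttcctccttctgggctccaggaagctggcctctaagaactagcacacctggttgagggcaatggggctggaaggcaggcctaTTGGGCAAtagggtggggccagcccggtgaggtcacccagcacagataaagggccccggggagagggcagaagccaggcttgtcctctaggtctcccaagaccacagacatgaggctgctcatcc
Relative to the start, the matches of Ngp began at bases -138 and -11, and the single matches at -232 in Ly6g, -216 in Lcn2 and -75 in Ltf.

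The library labelled SMYD3 knockdown (the knockdown-labelled library) had 10186 barcodes with 95803321 UMIs, or unique molecules, a median of 8309.5 per barcode, of which 8784 cells were kept. For the library labelled WT (the WT-labelled library) these numbers were 9265 barcodes, 91523767 UMIs, 9119 per barcode and 8079 cells. Both libraries held 22 barcode sequences in common. Smyd3 was at 20.5 CPM in the knockdown-labelled and 17.4 CPM in the WT-labelled library in tumour-like cells (CPM is UMIs of a gene per 1000000 UMIs of the cells summed). These levels rest on 29 UMIs in 45 cells (interval 13.7 to 29.4 CPM) and 39 UMIs in 65 cells (interval 12.4 to 23.8 CPM). The measured level was thus not lower under the knockdown label, but the counts are too few to show whether the mRNA was reduced. The labels serve as names of the libraries from here on. The series text states a sort for CD45 while the sample labels name epithelial cells; tumour-like cells led by Krt8 and Krt18 were 0.512% in the knockdown-labelled and 0.805% in the WT-labelled library of the kept cells. Acinar-like cells of the pancreas, 43 in number, were in the knockdown-labelled library alone. With 1 library per label there was no replicate and no test, and the 95% intervals (Poisson for levels, Clopper-Pearson for shares of cells, conditional binomial for ratios) cover counting error only.

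Neutrophil-like cells were 2136 in the knockdown-labelled library and 1319 in the WT-labelled library, in 2 clusters led by Retnlg, S100a9 and Cxcr2 and by Ciart, Gadd45b and Hcar2, made without the 10 genes. Their median depth was 1338 UMIs in the knockdown-labelled and 1262 UMIs in the WT-labelled library, far under that of monocyte-macrophage-like cells, at 11685 UMIs in the knockdown-labelled and 11284 UMIs in the WT-labelled library. The level of 9 of the 10 genes was higher in neutrophil-like cells than in every other class compared in both libraries, which held for 10.2% of 10952 genes, and the exception was Cybb. With a margin of at least 2-fold the count was 8 of the 10, against 4.93% of genes, and the second exception was Pglyrp1, whose level in NK-cell-like cells lay within that margin. A class with 0 UMIs counts as lower in both counts. Camp lay under the minimum of 20 UMIs and 10 CPM in a class that applied to the 10952 genes. Without Camp the counts were 8 of 9 and, with the margin, 7 of 9. For Ltf, Camp, Ngp, Ly6g and Padi4 the NK-cell-like cells had 0 UMIs in both libraries but so few UMIs in all that the limit of 3 counts lay above the neutrophil level, so neither order nor margin is shown against that class, and for Camp the same held against dendritic-cell-like, T-cell-like and tumour-like cells. The classes set against neutrophil-like cells were monocyte-macrophage-like, dendritic-cell-like, T-cell-like, NK-cell-like and tumour-like, each with at least 20 cells per library.

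**Figure D1:**
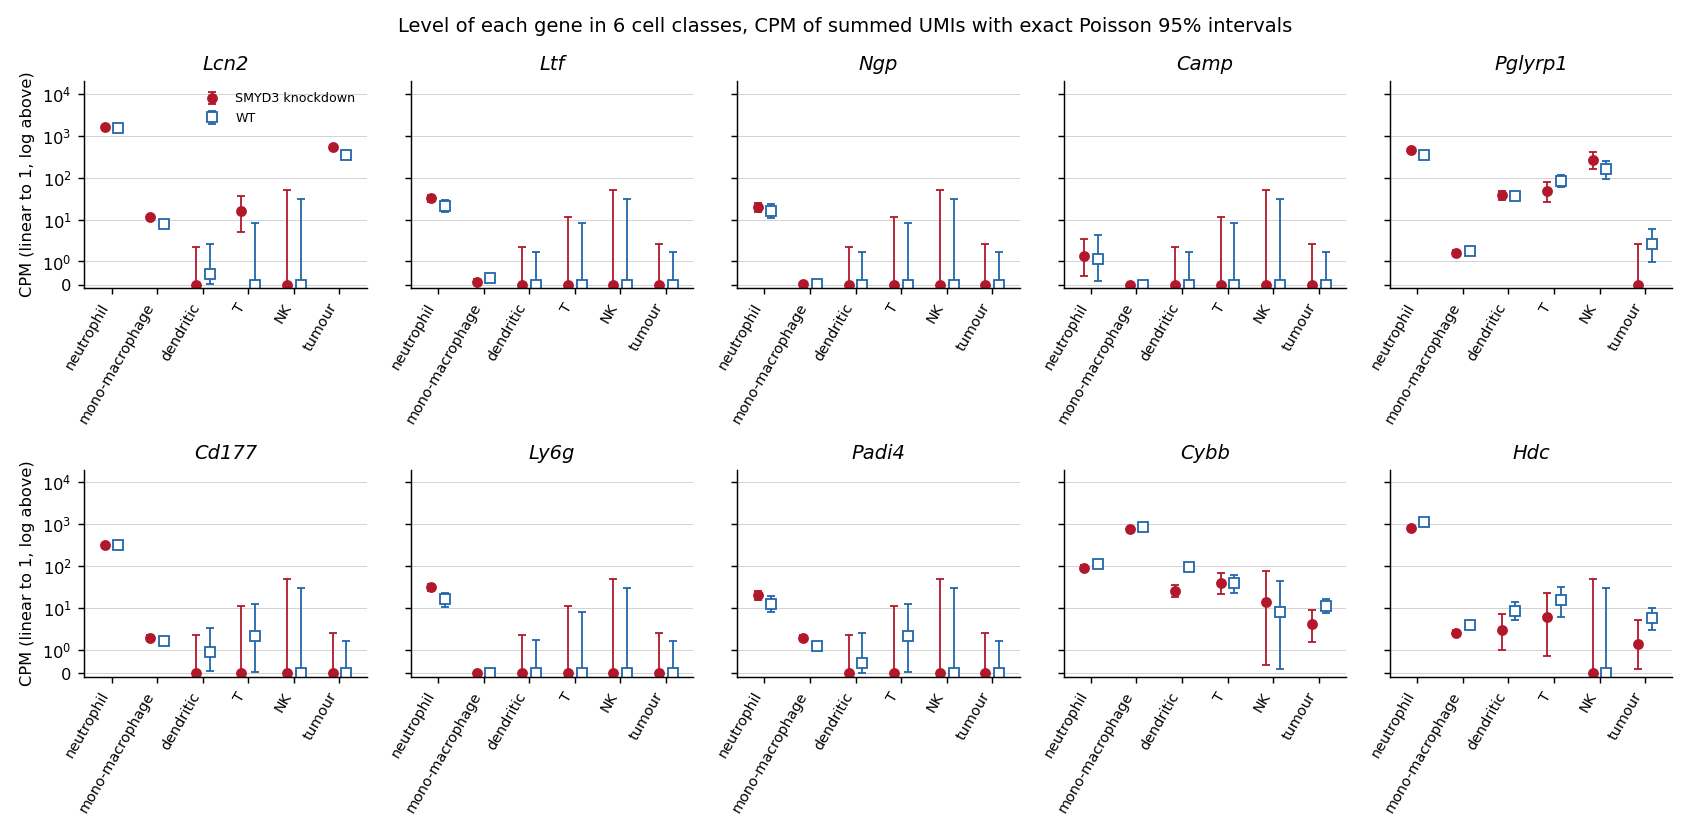
CPM of the 10 genes (vertical axis, linear up to 1 and logarithmic above) in 6 cell classes, with the library labelled SMYD3 knockdown as filled circles left of the library labelled WT as open squares; bars are exact Poisson 95% intervals. By measured level, 9 of the 10 genes are highest in neutrophil-like cells and Cybb is highest in monocyte-macrophage-like cells. Pglyrp1 in NK-cell-like cells comes close to its neutrophil level. For Ltf, Camp, Ngp, Ly6g and Padi4 the order against NK-cell-like cells cannot be told, because that class held too few UMIs in all. For Camp, which lies under the minimum of UMIs and CPM, the same holds against dendritic-cell-like, T-cell-like and tumour-like cells.

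Lcn2, lipocalin 2 of secondary granules, which binds the iron carriers of bacteria, had 1649 CPM (4921 UMIs) in the knockdown-labelled and 1478 CPM (2555 UMIs) in the WT-labelled library in neutrophil-like cells. It was found in 52.7% (interval 50.6 to 54.9%) in the knockdown-labelled and 49.4% (interval 46.6 to 52.1%) in the WT-labelled library. The gene was also plain in tumour-like cells, at 547 CPM in the knockdown-labelled and 339 CPM in the WT-labelled library with a UMI in 91.1% in the knockdown-labelled and 86.2% in the WT-labelled library. The neutrophil level was 3.02 times (interval 2.8 to 3.26) in the knockdown-labelled and 4.36 times (interval 4.02 to 4.73) in the WT-labelled library the tumour-like one. T-cell-like cells, which should lack it, had 5 UMIs in the knockdown-labelled and 0 UMIs in the WT-labelled library at a median depth of 2884 UMIs in the knockdown-labelled and 2533 UMIs in the WT-labelled library. The monocyte cluster led by Ly6c2 and Plac8 (186 cells in the knockdown-labelled and 131 cells in the WT-labelled library) had 301 CPM in the knockdown-labelled and 341 CPM in the WT-labelled library, and acinar-like cells had 264 CPM. That cluster held 42.4% in the knockdown-labelled and 50% in the WT-labelled library of the Lcn2 UMIs of monocyte-macrophage-like cells, and the rest lay in other clusters of the class.

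Ltf, lactoferrin, which binds iron, was sparse, at 31.8 CPM (95 UMIs) in the knockdown-labelled and 21.4 CPM (37 UMIs) in the WT-labelled library. It was found in 4.03% (interval 3.23 to 4.95%) in the knockdown-labelled and 2.5% (interval 1.73 to 3.5%) in the WT-labelled library of neutrophil-like cells, and no cell held more than 2 UMIs. Dendritic-cell-like, T-cell-like, NK-cell-like and tumour-like cells had 0 Ltf UMIs in both libraries. For T-cell-like cells, the limit of 3 counts allows, for 0 of 99, a share of cells with a UMI of up to 3.03% in the knockdown-labelled library, and 0 of 132 up to 2.27% in the WT-labelled library. Monocyte-macrophage-like cells held 10 UMIs in the knockdown-labelled and 21 UMIs in the WT-labelled library.

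Ngp, neutrophilic granule protein, a relative of the cystatins, had 19.4 CPM (58 UMIs) in the knockdown-labelled and 16.2 CPM (28 UMIs) in the WT-labelled library, in 2.29% in the knockdown-labelled and 1.36% in the WT-labelled library of neutrophil-like cells. The 5 cells richest in Ngp held 20.7% in the knockdown-labelled and 53.6% in the WT-labelled library of its UMIs. Camp, the precursor of the cathelicidin peptide, had 4 UMIs in the knockdown-labelled and 2 UMIs in the WT-labelled library, all in neutrophil-like cells, in 3 cells in the knockdown-labelled and 2 cells in the WT-labelled library. Among these genes of secondary granules, Lcn2 mRNA was thus frequent in the cells while Ltf, Ngp and Camp mRNA was found in few or almost none.

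Pglyrp1, a peptidoglycan-binding protein of secondary granules, had 453 CPM in the knockdown-labelled and 350.0 CPM in the WT-labelled library and was found in 33% (interval 31 to 35%) in the knockdown-labelled and 26% (interval 23.7 to 28.5%) in the WT-labelled library of neutrophil-like cells. NK-cell-like cells came next with 261 CPM (19 UMIs) in the knockdown-labelled and 156 CPM (19 UMIs) in the WT-labelled library, from 20 cells in the knockdown-labelled and 39 cells in the WT-labelled library. The neutrophil level was 1.74 times (interval 1.11 to 2.9) in the knockdown-labelled and 2.25 times (interval 1.43 to 3.76) in the WT-labelled library the NK level. T-cell-like cells held 15 UMIs in the knockdown-labelled and 38 UMIs in the WT-labelled library, at 46.8 CPM in the knockdown-labelled and 84.3 CPM in the WT-labelled library. Per 1000 UMIs of S100a8 and S100a9, which mark neutrophils, Pglyrp1 stood at 10.4 in the knockdown-labelled and 9.73 in the WT-labelled library in neutrophil-like cells but at 156 in the knockdown-labelled and 384 in the WT-labelled library in T-cell-like cells. The ratio of Pglyrp1 to those genes was thus higher in T-cell-like cells.

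Cd177, a glycolipid-anchored surface protein that pairs with integrins, had 319.6 CPM in the knockdown-labelled and 318 CPM in the WT-labelled library in neutrophil-like cells and a UMI in 25.1% in the knockdown-labelled and 23.7% in the WT-labelled library. It was also present in the Ly6c2 and Plac8 monocyte cluster, at 60.1 CPM in the knockdown-labelled and 70.7 CPM in the WT-labelled library. Ly6g, the surface antigen by which antibodies mark mouse neutrophils, had 31.5 CPM (94 UMIs) in the knockdown-labelled and 16.2 CPM (28 UMIs) in the WT-labelled library, in 3.37% (interval 2.65 to 4.23%) in the knockdown-labelled and 1.67% (interval 1.05 to 2.51%) in the WT-labelled library of neutrophil-like cells. Outside them each library held 1 Ly6g UMI, in monocyte-macrophage-like cells, so 98.9% in the knockdown-labelled and 96.6% in the WT-labelled library of its UMIs lay in neutrophil-like cells. Ly6g was restricted but rarely detected, and Cd177 was common but shared with monocytes.

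**Figure D2:**
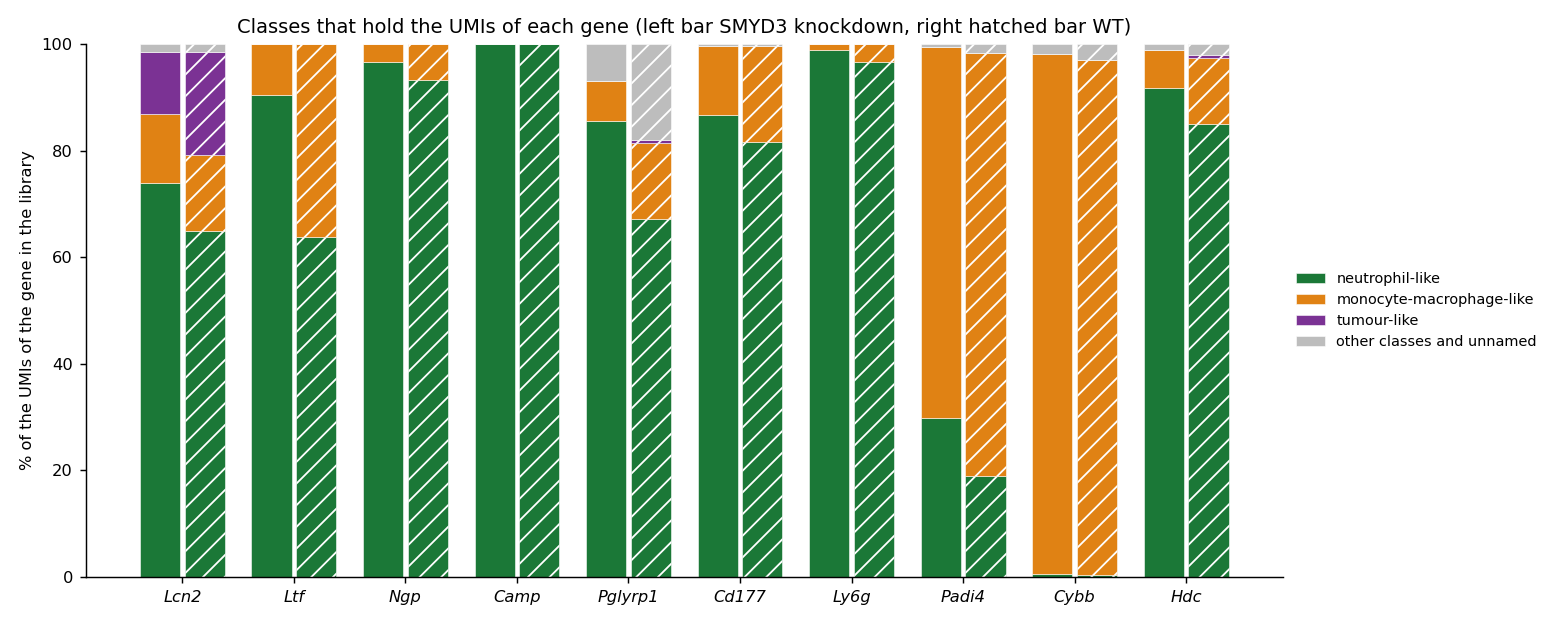
Share of each gene's UMIs (percent of all its UMIs in kept cells of a library) held by each class; the left bar of a pair is the library labelled SMYD3 knockdown and the right hatched bar the library labelled WT. Camp, Ngp and Ly6g lie almost wholly in neutrophil-like cells, most Padi4 and nearly all Cybb UMIs lie in monocyte-macrophage-like cells, and 11.6% (labelled SMYD3 knockdown) and 19.3% (labelled WT) of Lcn2 UMIs lie in tumour-like cells.

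Padi4, which turns arginine of histones into citrulline before chromatin is released as traps, had 20.4 CPM (61 UMIs) in the knockdown-labelled and 12.7 CPM (22 UMIs) in the WT-labelled library in neutrophil-like cells. These were 29.8% in the knockdown-labelled and 19% in the WT-labelled library of its UMIs. Monocyte-macrophage-like cells held 143 UMIs in the knockdown-labelled and 92 UMIs in the WT-labelled library. Most of these came from 1 cluster led by Prg4, Cd5l and Alox15 (826 cells in the knockdown-labelled and 586 cells in the WT-labelled library), where Padi4 was at 10.5 CPM (122 UMIs) in the knockdown-labelled and 12 CPM (85 UMIs) in the WT-labelled library. The cluster held 10 Hdc UMIs beside 122 Padi4 UMIs in the knockdown-labelled library and 23 beside 85 in the WT-labelled library, whereas neutrophil-like cells held 2478 beside 61 in the knockdown-labelled library and 1979 beside 22 in the WT-labelled library. These macrophage-like cells thus held more Padi4 UMIs than Hdc UMIs, and neutrophil-like cells fewer. The other arginine deiminases, Padi1, Padi2, Padi3 and Padi6, had 0 UMIs in neutrophil-like cells of both libraries.

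Cybb, the membrane subunit of the phagocyte NADPH oxidase that makes superoxide, had 93.1 CPM in the knockdown-labelled and 113 CPM in the WT-labelled library in neutrophil-like cells. In monocyte-macrophage-like cells it had 768 CPM in the knockdown-labelled and 845 CPM in the WT-labelled library, and the neutrophil level was 0.121 times in the knockdown-labelled and 0.134 times in the WT-labelled library that. With every cell thinned to 500 UMIs, 3.51% in the knockdown-labelled and 4.09% in the WT-labelled library of neutrophil-like cells had a Cybb UMI, and in monocyte-macrophage-like cells the share was 29.4% in the knockdown-labelled and 30.2% in the WT-labelled library. T-cell-like cells, which should lack Cybb, had 40.5 CPM in the knockdown-labelled and 39.9 CPM in the WT-labelled library and a thinned share of 1.01% in the knockdown-labelled and 1.52% in the WT-labelled library. Per cell, neutrophil-like cells held 0.13 Cybb UMIs in the knockdown-labelled and 0.149 Cybb UMIs in the WT-labelled library and T-cell-like cells 0.131 in the knockdown-labelled and 0.136 in the WT-labelled library. Neutrophil-like cells also held 1.92 in the knockdown-labelled and 2.28 in the WT-labelled library UMIs of the macrophage genes C1qa, C1qb and C1qc per cell, and T-cell-like cells 3.24 in the knockdown-labelled and 3.04 in the WT-labelled library. In neutrophil-like cells with 0 UMIs of these 3 genes (354 cells in the knockdown-labelled and 168 cells in the WT-labelled library), Cybb was at 84.4 CPM in the knockdown-labelled and 112 CPM in the WT-labelled library. Per cell, Cybb in neutrophil-like cells was at the level of T-cell-like cells, while its CPM was higher. Its CPM in neutrophil-like cells without C1q UMIs also lay above that of all T-cell-like cells. T-cell-like cells without C1q UMIs were 16 in the knockdown-labelled and 6 in the WT-labelled library. They held 0 Cybb UMIs but were too few to compare. In dendritic-cell-like cells Cybb was at 25.7 CPM in the knockdown-labelled and 94.1 CPM in the WT-labelled library, and 139 of the 204 UMIs of the WT-labelled library came from 9 cells led by Siglech that the knockdown-labelled library lacked.

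Hdc, histidine decarboxylase, which makes histamine, had 830.3 CPM (2478 UMIs) in the knockdown-labelled and 1145 CPM (1979 UMIs) in the WT-labelled library in neutrophil-like cells, and was found in 50.3% (interval 48.2 to 52.5%) in the knockdown-labelled and 54.7% (interval 52 to 57.4%) in the WT-labelled library. Basophils and mast cells, the best-known sources of histamine, were nearly missing: 1 cell in the knockdown-labelled and 0 cells in the WT-labelled library had at least 2 of 5 markers, and they held 0 Hdc UMIs. Neutrophil-like cells held 91.7% in the knockdown-labelled and 85% in the WT-labelled library of all Hdc UMIs. Per 1000 S100a8 and S100a9 UMIs, Hdc stood at 19.1 in the knockdown-labelled and 31.8 in the WT-labelled library in neutrophil-like cells and at 17.9 in the knockdown-labelled and 32.3 in the WT-labelled library in monocyte-macrophage-like cells. The macrophage-like cells thus held Hdc and the S100 genes in nearly the neutrophil ratio of their own library, unlike Lcn2, at 37.9 in the knockdown-labelled and 41.1 in the WT-labelled library in neutrophil-like and 79.4 in the knockdown-labelled and 62.8 in the WT-labelled library in monocyte-macrophage-like cells.

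Neutrophil-like cells were clustered again, without the 10 genes, into 4 states. A Retnlg-led state (Retnlg, Mmp8, Bmx) held 727 cells (34%) in the knockdown-labelled and 304 cells (23%) in the WT-labelled library, with shares of the neutrophil-like cells in brackets. A Car2-led state (Car2, Scimp, Chil3) held 596 cells (27.9%) in the knockdown-labelled and 520 cells (39.4%) in the WT-labelled library. A Hilpda-led state (Hilpda, Fnip2, Ero1a) held 769 cells (36%) in the knockdown-labelled and 462 cells (35%) in the WT-labelled library; Hilpda and Ero1a are known as genes induced by low oxygen. A state led by interferon-induced genes had 44 cells in the knockdown-labelled and 33 cells in the WT-labelled library and was set aside. Median depth was 1476 UMIs in the knockdown-labelled and 1426 UMIs in the WT-labelled library in Retnlg-led, 1267 UMIs in the knockdown-labelled and 1282 UMIs in the WT-labelled library in Car2-led and 1274 UMIs in the knockdown-labelled and 1120 UMIs in the WT-labelled library in Hilpda-led cells. The summed C1q level was 1245 CPM in the knockdown-labelled and 1594 CPM in the WT-labelled library in Retnlg-led, 1434 CPM in the knockdown-labelled and 1736 CPM in the WT-labelled library in Car2-led and 1454 CPM in the knockdown-labelled and 1873 CPM in the WT-labelled library in Hilpda-led cells.

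In both libraries 6 of the 10 genes were highest in the Retnlg-led state (Lcn2, Ngp, Ly6g, Pglyrp1, Padi4 and Hdc), a pattern of 13.9% of the 5938 genes that had 20 UMIs and 10 CPM or more in one of the libraries. For 4 of them (Ngp, Ly6g, Pglyrp1 and Padi4) the Retnlg-led level was at least 2-fold above both other states in both libraries, as for 1.55% of genes. The same state was on top in both libraries for 7 of the 10, against 68% of genes. Camp did not pass the minimum that applied to the 5938 genes. Among the 9 genes that passed, the counts were 6, 4 and 7 in the same order.

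**Figure D3:**
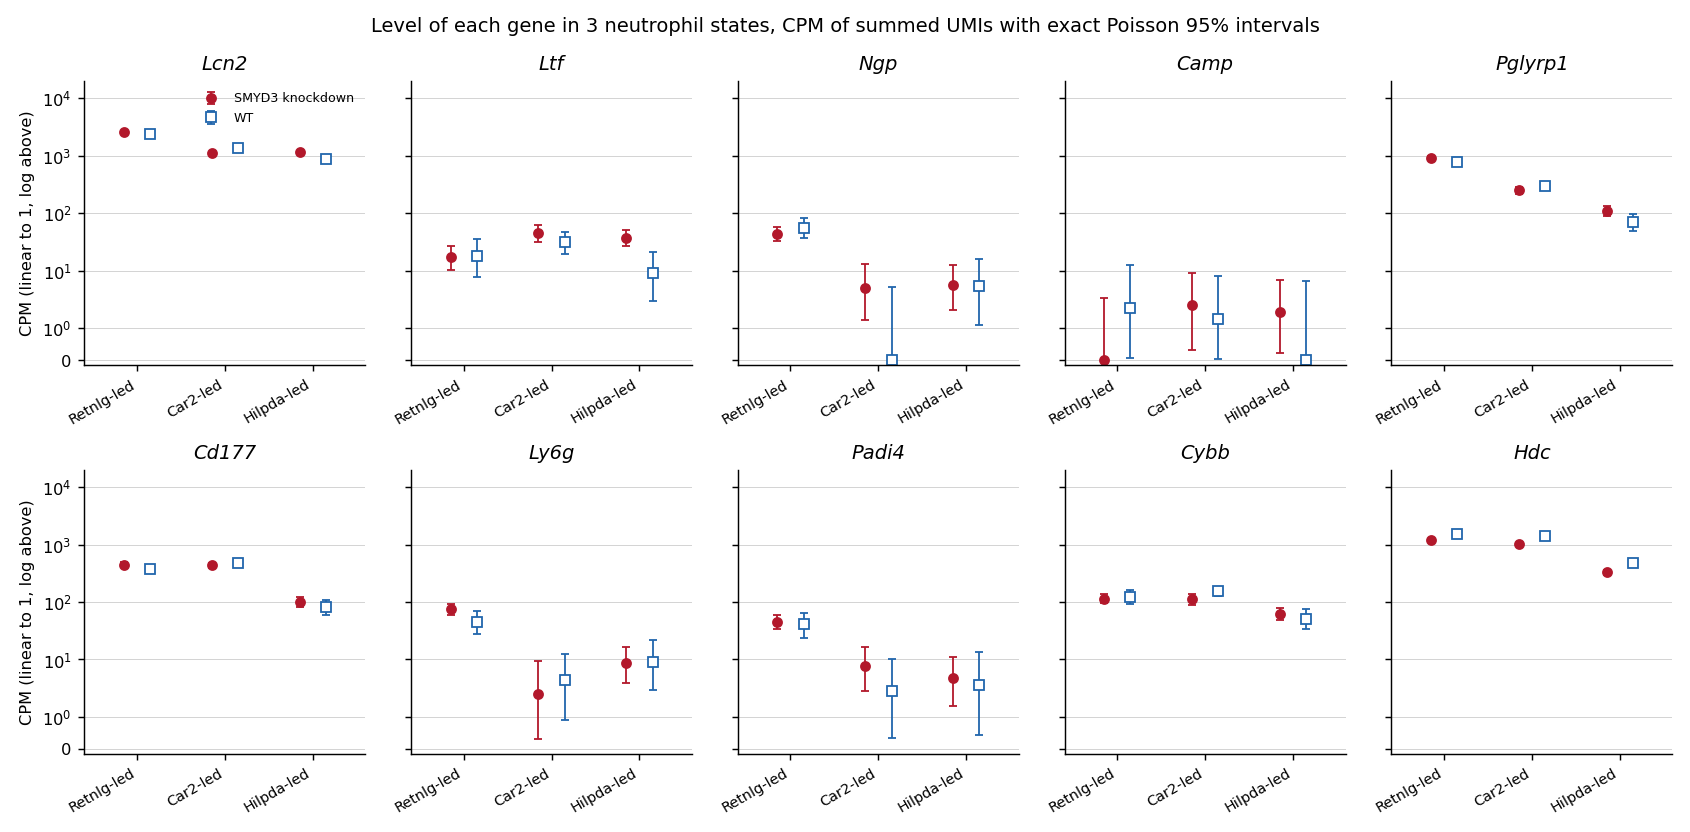
CPM of the 10 genes (vertical axis, linear up to 1 and logarithmic above) in 3 neutrophil states named by a leading gene, with the library labelled SMYD3 knockdown as filled circles left of the library labelled WT as open squares; bars are exact Poisson 95% intervals. Ngp, Ly6g, Pglyrp1 and Padi4 are well above their other levels in the Retnlg-led state, Cd177 and Hdc are low in the Hilpda-led state, and Ltf is not highest in the Retnlg-led state.

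Ly6g had its highest level in the Retnlg-led state in both libraries. Its level was 74.1 CPM in Retnlg-led, 2.56 CPM in Car2-led and 8.64 CPM in Hilpda-led cells of the knockdown-labelled library, and at 45.2, 4.31 and 9.16 CPM in these states of the WT-labelled library. The Retnlg-led level was above the Hilpda-led one by a factor of 8.58 (interval 4.3 to 19.4) in the knockdown-labelled and 4.93 (interval 1.8 to 16.8) in the WT-labelled library. Ngp was also highest in Retnlg-led cells. The level of Ngp was at 43.9 CPM in Retnlg-led, 5.11 CPM in Car2-led and 5.76 CPM in Hilpda-led cells of the knockdown-labelled library, and at 56.5, 0 and 5.5 CPM in these states of the WT-labelled library. Padi4 was at 45.7 CPM in Retnlg-led, 7.67 CPM in Car2-led and 4.8 CPM in Hilpda-led cells of the knockdown-labelled library, and at 40.6, 2.87 and 3.67 CPM in these states of the WT-labelled library. For these 3 genes the intervals of the Retnlg-led level stayed clear of those of the other states in both libraries, on as few as 18 UMIs for Padi4 in the WT-labelled library. In that library 5 neutrophil-like cells held 15 of the 28 Ngp UMIs, and the intervals do not cover such unevenness between cells.

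Pglyrp1 stepped down through the states on ample counts. Pglyrp1 was at 934 CPM in Retnlg-led, 252 CPM in Car2-led and 109 CPM in Hilpda-led cells of the knockdown-labelled library, and at 790.4, 303 and 69.6 CPM in these states of the WT-labelled library. The Retnlg-led level was above the Car2-led one by a factor of 3.71 (interval 3.18 to 4.34) in the knockdown-labelled and 2.61 (interval 2.19 to 3.11) in the WT-labelled library. Lcn2 was also highest in Retnlg-led cells, but its 2 other states changed places between the libraries. Lcn2 was at 2546 CPM in Retnlg-led, 1103 CPM in Car2-led and 1155 CPM in Hilpda-led cells of the knockdown-labelled library, and at 2396, 1356 and 883 CPM in these states of the WT-labelled library. The Car2-led over Hilpda-led ratio was 0.955 (interval 0.874 to 1.04) in the knockdown-labelled and 1.54 (interval 1.37 to 1.72) in the WT-labelled library.

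Cd177, Cybb, Pglyrp1 and Hdc were lowest in the Hilpda-led state in both libraries, a pattern of 30.4% of genes. Hdc was at 1181 CPM in Retnlg-led, 1002 CPM in Car2-led and 329 CPM in Hilpda-led cells of the knockdown-labelled library, and at 1524, 1429.8 and 475 CPM in these states of the WT-labelled library. The Retnlg-led over Car2-led ratio of Hdc was 1.18 (interval 1.08 to 1.29) in the knockdown-labelled and 1.07 (interval 0.965 to 1.18) in the WT-labelled library, so these states were close. Cd177 was at 447 CPM in Retnlg-led, 433 CPM in Car2-led and 102 CPM in Hilpda-led cells of the knockdown-labelled library, and at 375, 483 and 80.6 CPM in these states of the WT-labelled library. Cd177 had its highest level in the Retnlg-led state of the knockdown-labelled library and in the Car2-led state of the WT-labelled library. In the knockdown-labelled library these states were close, with a Retnlg-led over Car2-led ratio of 1.03 (interval 0.897 to 1.19). The Car2-led over Retnlg-led ratio in the WT-labelled library was 1.29 (interval 1.07 to 1.56). Cybb was at 113 CPM in Retnlg-led, 112 CPM in Car2-led and 62.4 CPM in Hilpda-led cells of the knockdown-labelled library, and at 124, 154 and 51.3 CPM in these states of the WT-labelled library. Per 1000 C1q UMIs, Cybb stood at 91.1 in the knockdown-labelled and 77.9 in the WT-labelled library in Retnlg-led and at 42.9 in the knockdown-labelled and 27.4 in the WT-labelled library in Hilpda-led cells.

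Ltf had its highest level of the 3 states in the Car2-led state in both libraries, where Lcn2, Ngp and Pglyrp1 had theirs in the Retnlg-led state. Of 13 further genes listed with secondary granules, counted after the correlations, 4 were highest in the Retnlg-led state in both libraries, beside 13.9% of the 5938 genes. They include Mmp8 and Anxa1, which are leading genes of that state and were not left out of the clustering. Ltf was at 46 CPM in Car2-led, 37.4 CPM in Hilpda-led and 17.4 CPM in Retnlg-led cells of the knockdown-labelled library, and at 31.6, 9.16 and 18.1 CPM in these states of the WT-labelled library. Its Car2-led over Retnlg-led ratio was 2.65 (interval 1.48 to 4.89) in the knockdown-labelled and 1.75 (interval 0.75 to 4.55) in the WT-labelled library, so the order exceeded counting error in the knockdown-labelled library and not in the WT-labelled library. The 6 Camp UMIs fell on all 3 states, with at most 2 in a state of a library.

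None of the 10 was detected in 19.7% in the knockdown-labelled and 20.6% in the WT-labelled library of neutrophil-like cells, exactly 1 in 25.7% in the knockdown-labelled and 27.2% in the WT-labelled library and exactly 2 in 24.4% in the knockdown-labelled and 25.2% in the WT-labelled library. Exactly 3 were found in 17.6% in the knockdown-labelled and 16.9% in the WT-labelled library, exactly 4 in 8.29% in the knockdown-labelled and 7.73% in the WT-labelled library and exactly 5 in 3.28% in the knockdown-labelled and 1.82% in the WT-labelled library. At this depth the absence of a UMI does not show absence of the mRNA. Among Retnlg-led cells, Lcn2 was detected in 91.5% of the 59 cells with a UMI of Ly6g and 72.6% of the 668 without in the knockdown-labelled library, and in 100% of the 16 cells with a UMI of Ly6g and 75% of the 288 without in the WT-labelled library. Cells with a Ly6g UMI were deeper, however, with a median of 1899 UMIs against 1447 in those without in the knockdown-labelled library. Thinned to 500 UMIs, Lcn2 was in 85% of the 20 cells with a UMI of Ly6g and 52.9% of the 707 without in the knockdown-labelled library, and in 57.1% of the 7 cells with a UMI of Ly6g and 54.9% of the 297 without in the WT-labelled library. Ltf and Ngp shared a cell in 2 cases in the knockdown-labelled and 0 cases in the WT-labelled library, among 86 cells in the knockdown-labelled and 33 cells in the WT-labelled library with Ltf.

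Between the libraries, 2 of the 9 genes that passed the minimum of UMIs and CPM in neutrophil-like cells (Ly6g and Padi4) were at least 1.5-fold higher in the knockdown-labelled library, beside 3.57% of 5938 genes, and 0 were at least 1.5-fold lower, beside 9.48%. Camp, with 6 UMIs, did not pass. The median difference on the log2(CPM + 5) scale, SMYD3 knockdown label minus WT label, was 0.20 over the 9 genes and -0.08 over all 5938. The medians of the lower and upper bounds of the 9 differences were -0.03 and 0.51, and with the same mix of states, as below, the median was 0.08. A sum over cells does not tell fewer cells with a gene from less of its RNA per cell.

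Hdc was lower in the knockdown-labelled library, at 830.3 CPM, with 1145 CPM in the WT-labelled library, a ratio of 0.725 (interval 0.683 to 0.77). It was lower in each of the 3 states, by ratios of 0.775 (interval 0.705 to 0.852) in Retnlg-led, 0.701 (interval 0.637 to 0.77) in Car2-led and 0.693 (interval 0.588 to 0.818) in Hilpda-led cells. In monocyte-macrophage-like cells, at 2.62 CPM in the knockdown-labelled and 4.02 CPM in the WT-labelled library, the ratio was 0.652 (interval 0.541 to 0.785). Thinned to 500 UMIs per cell, Hdc was found in 28.1% in the knockdown-labelled and 34.4% in the WT-labelled library of neutrophil-like cells. Hdc was the gene of the 10 whose ratio lay under 1 with its interval in all 3 states.

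Ly6g was higher in the knockdown-labelled library, at 31.5 CPM, with 16.2 CPM in the WT-labelled library, a ratio of 1.94 (interval 1.26 to 3.08). The Retnlg-led state held 81 of the 94 UMIs in the knockdown-labelled library and 20 of the 28 in the WT-labelled library, and there the ratio was 1.64 (interval 0.996 to 2.83). Padi4 had a ratio of 1.61 (interval 0.972 to 2.75), and of 1.13 (interval 0.645 to 2.05) in Retnlg-led cells. Weighted to the same mix of states in both libraries, a calculation added after the shares of the states were seen, the ratios were 1.46 for Ly6g, 1.25 for Padi4 and 1.7 for Ltf, so that Ltf alone of the 9 was past 1.5-fold. The share of Retnlg-led cells, 34% in the knockdown-labelled and 23% in the WT-labelled library, was higher along with the Ly6g and Padi4 levels.

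Pglyrp1 was higher in the knockdown-labelled library, at 453 CPM, with 350.0 CPM in the WT-labelled library, a ratio of 1.3 (interval 1.18 to 1.43). By state the ratio was 1.18 (interval 1.05 to 1.34) in Retnlg-led, 0.83 (interval 0.68 to 1.01) in Car2-led and 1.57 (interval 1.08 to 2.33) in Hilpda-led cells. Lcn2 had a ratio of 1.12 (interval 1.06 to 1.17) in all neutrophil-like cells, and of 1.06 (interval 0.99 to 1.14) in Retnlg-led, 0.813 (interval 0.741 to 0.893) in Car2-led and 1.31 (interval 1.18 to 1.46) in Hilpda-led cells. Both genes were higher under the knockdown label in Hilpda-led cells and lower in Car2-led cells, where the interval of Pglyrp1 includes 1; the difference between states was not tested. With the same mix of states Lcn2 came to 1.03 and Pglyrp1 to 1.12.

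Ltf had a ratio of 1.49 (interval 1.01 to 2.24). It was highest in Hilpda-led cells, where 39 UMIs in the knockdown-labelled library and 5 in the WT-labelled library gave 4.08 (interval 1.61 to 13.3), and in Retnlg-led cells it was 0.962 (interval 0.402 to 2.54). The ratio of Ngp was 1.2 (interval 0.752 to 1.96) and that of Cd177 1.01 (interval 0.905 to 1.12), and both intervals include 1. Cybb was lower in the knockdown-labelled library, at a ratio of 0.821 (interval 0.682 to 0.991). Summed C1q RNA in the same cells was at 1376 CPM in the knockdown-labelled and 1738 CPM in the WT-labelled library. The 12 monocyte-macrophage markers, all 12 with a UMI in both libraries, summed to 3128 CPM in the knockdown-labelled and 4067 CPM in the WT-labelled library. The 7 acinar markers summed to 1961 CPM in the knockdown-labelled and 0.578 CPM in the WT-labelled library, with 7 of them detected in the knockdown-labelled library and 1 in the WT-labelled library. The part of either in these ratios was not tested.

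**Figure D4:**
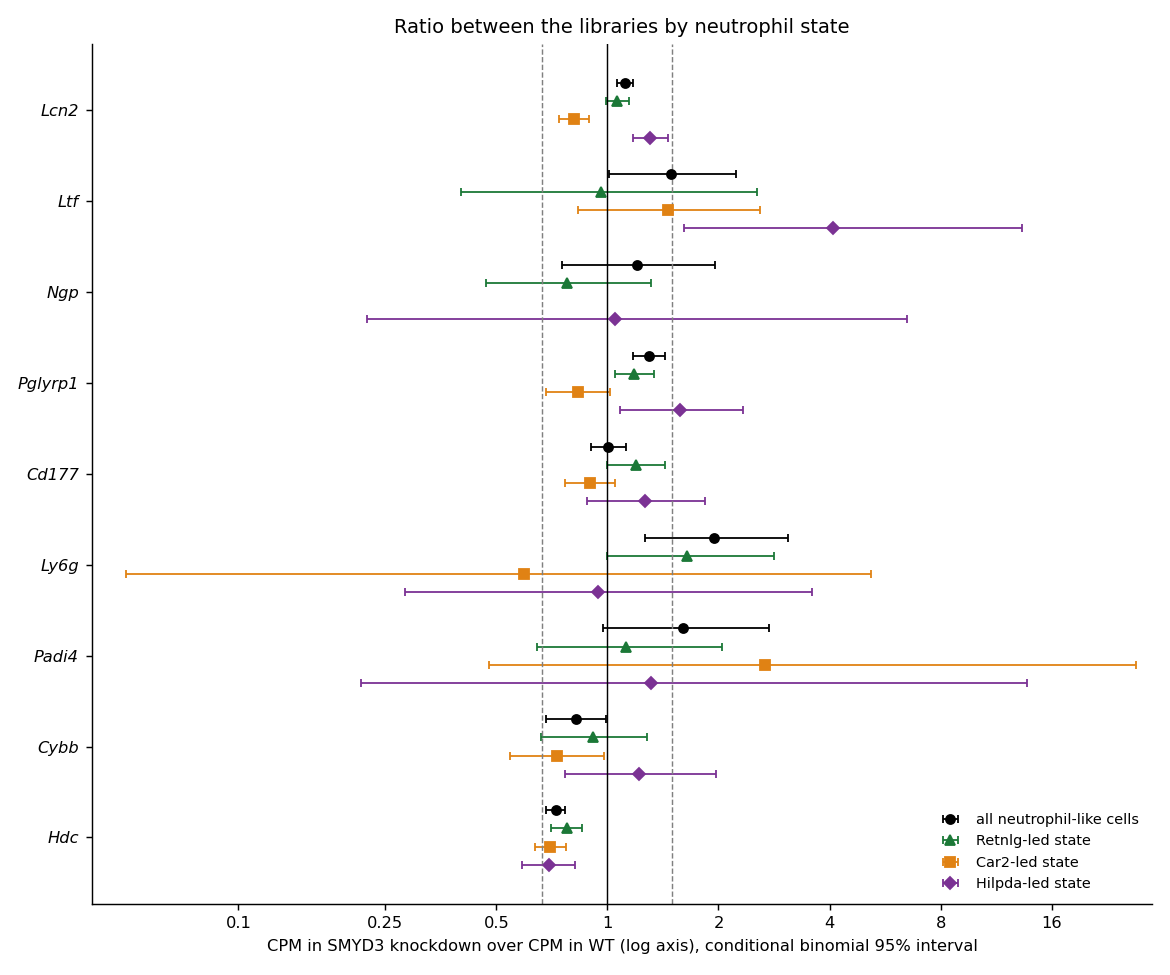
Ratio of CPM in the library labelled SMYD3 knockdown over CPM in the library labelled WT (horizontal log axis) for 9 genes, in all neutrophil-like cells and in 3 states, with conditional binomial 95% intervals; dashed lines mark 1.5-fold in either direction, and Ngp in the Car2-led state is left out because the library labelled WT had 0 UMIs. Hdc lies left of 1 in all 4 rows, Lcn2 and Pglyrp1 lie right of 1 in the Hilpda-led and left of 1 in the Car2-led state, and the intervals of Ly6g, Padi4, Ngp and Ltf are wide.

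Outside neutrophil-like cells, Lcn2 in tumour-like cells had 547 CPM in the knockdown-labelled library, from 45 cells, and 339 CPM in the WT-labelled library, from 65 cells, a ratio of 1.61 (interval 1.46 to 1.78). In the Ly6c2 and Plac8 monocyte cluster the ratio was 0.882 (interval 0.753 to 1.03) for Lcn2, 0.849 (interval 0.593 to 1.22) for Cd177 and 0.967 (interval 0.623 to 1.51) for Pglyrp1. All 3 intervals there include 1. Padi4 had a ratio of 1.5 (interval 1.14 to 1.97) over all monocyte-macrophage-like cells but of 0.875 (interval 0.658 to 1.17) within the Prg4, Cd5l and Alox15 cluster that held most of its UMIs. Cybb in monocyte-macrophage-like cells had a ratio of 0.909 (interval 0.899 to 0.92).

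The genes most like each of the 10 were ranked by Pearson's r of log2(CPM + 5) over 16 points, which are 3 neutrophil states and 5 other classes in both libraries, among 5596 genes. Points of a library share its cells and depth, so r is a description. Ngp, Ly6g and Padi4 shared neighbours, on only 86, 122 and 83 UMIs in neutrophil-like cells of both libraries. Their shared neighbour Bmx is a leading gene of the Retnlg-led state. Ngp had Bmx (r = 0.977), Padi4 (r = 0.972), 9830107B12Rik (r = 0.966). Ly6g had Bmx (r = 0.972), Ngp (r = 0.964), 9830107B12Rik (r = 0.962), and Padi4 had Ngp (r = 0.972), 9830107B12Rik (r = 0.964), Bmx (r = 0.955). For Hdc they were Cxcr2 (r = 0.989), Cd177 (r = 0.986), Asprv1 (r = 0.986); Cxcr2 is the chemokine receptor by which neutrophils leave the marrow. For Cd177 they were Sycp2 (r = 0.996), Gm9733 (r = 0.994), Acta2 (r = 0.993). Lcn2 had Map1lc3b (r = 0.965), Tnfaip6 (r = 0.961), Myo1d (r = 0.957). Pglyrp1 had Adgre5 (r = 0.956), Rnf167 (r = 0.945), Ksr1 (r = 0.933). Cybb had Cfp (r = 0.945), Lrp12 (r = 0.919) and Lyz2 (r = 0.918). Cfp is properdin and Lyz2 a lysozyme of myeloid cells. Ltf, also sparse with 132 UMIs, had Amer2 (r = 0.975), Gm37691 (r = 0.969) and Med7 (r = 0.963). Camp, on 6 UMIs, had Ltf (r = 0.854), Gm45805 (r = 0.83) and Rpl21-ps1 (r = 0.818).

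Other genes of the same pathways were counted in neutrophil-like cells, and list medians are of the same log2 difference as above. Of 8 primary granule genes in the matrix 4 had a UMI and 1 passed the minimum; Mpo, Elane, Ctsg and Bpi, products of the first granules, were at 0 UMIs in both libraries. The others with a UMI, named after their values were seen, were Prtn3, proteinase 3, with 9 UMIs in the knockdown-labelled and 0 UMIs in the WT-labelled library, Prss57 with 4 UMIs in the knockdown-labelled and 0 UMIs in the WT-labelled library, and Ms4a3 with 1 UMI in the knockdown-labelled and 2 UMIs in the WT-labelled library. Serpinb1a, an inhibitor of granule proteases, passed with 31.5 CPM in the knockdown-labelled and 21.4 CPM in the WT-labelled library (ratio 1.47, interval 0.996 to 2.21). Of 13 further genes listed with secondary granules, among them the regulator Cebpe, 12 passed, with a median of -0.03 and none 1.5-fold apart. The largest differences were those of Anxa1 at 541 CPM in the knockdown-labelled and 389.9 CPM in the WT-labelled library (ratio 1.39, interval 1.27 to 1.52), Chil3 at 578 CPM in the knockdown-labelled and 714 CPM in the WT-labelled library (ratio 0.809, interval 0.752 to 0.871) and Hp, haptoglobin, at 781 CPM in the knockdown-labelled and 642 CPM in the WT-labelled library (ratio 1.22, interval 1.13 to 1.31). Of the 13, Fcnb was at 0 UMIs in both libraries.

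Of 11 genes of gelatinase granules and secretory vesicles 10 passed, with a median of -0.04 and none 1.5-fold apart. Slc11a1, a metal transporter of the phagosome, had 127 CPM in the knockdown-labelled and 93.7 CPM in the WT-labelled library (ratio 1.36, interval 1.13 to 1.64), and Mmp9, gelatinase B, had 248 CPM in the knockdown-labelled and 315 CPM in the WT-labelled library (ratio 0.785, interval 0.702 to 0.879). Of 8 genes listed with the NADPH oxidase 6 passed, with a median of 0.15 and none 1.5-fold apart. Among them Rac1 had 420.2 CPM in the knockdown-labelled and 578 CPM in the WT-labelled library (ratio 0.727, interval 0.668 to 0.791), and the oxidase subunit Cyba had a ratio of 1.11. Unlike Cybb, the subunits Ncf1 and Ncf4, named after their values were seen, were higher in neutrophil-like cells than in every other class in both libraries.

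Of 8 genes of histamine handling and of basophils and mast cells 1 passed: Hnmt, which methylates histamine, had 16.4 CPM in the knockdown-labelled and 15.6 CPM in the WT-labelled library (ratio 1.05, interval 0.644 to 1.75). Of 7 relatives of Ly6g 3 passed, with a median of 0.54, and 1 was 1.5-fold higher: Ly6c2, a monocyte antigen, at 17.8 CPM in the knockdown-labelled and 9.83 CPM in the WT-labelled library (ratio 1.81, interval 1.03 to 3.33). Plaur, the urokinase receptor, had 2112 CPM in the knockdown-labelled and 1451 CPM in the WT-labelled library (ratio 1.46, interval 1.39 to 1.53). Of 5 genes of peptidoglycan sensing 2 passed, Nod1 and Nod2, with a median of -0.20. Of 6 receptors and partners of cathelicidin and lipocalin 4 passed, with a median of -0.14, and none in these 2 lists was 1.5-fold apart.

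Of 12 maturity and tissue genes 11 passed, with a median of 0.00 and none 1.5-fold apart. Retnlg, which leads a state, was just under that at 4025 CPM in the knockdown-labelled and 2691 CPM in the WT-labelled library (ratio 1.496), and Cxcr4, the receptor that retains neutrophils in the marrow, had 605 CPM in the knockdown-labelled and 435 CPM in the WT-labelled library (ratio 1.39, interval 1.28 to 1.52). Of 12 regulators of granulocyte development 11 passed, with a median of 0.04, and 1 was 1.5-fold lower in the knockdown-labelled library: Cebpb, the C/EBP factor of emergency granulopoiesis, had 1102 CPM in the knockdown-labelled and 4249.6 CPM in the WT-labelled library (ratio 0.259, interval 0.249 to 0.27). In Retnlg-led, Car2-led and Hilpda-led cells Cebpb was at 959.6, 1192 and 1181 CPM in the knockdown-labelled library, and at 3868, 4388 and 4404 CPM in the WT-labelled library. Outside neutrophil-like cells its highest class level was also lower in the knockdown-labelled library, at 265 CPM in the knockdown-labelled and 1053 CPM in the WT-labelled library. Cebpe, which drives secondary granule genes, had 14.1 CPM in the knockdown-labelled and 17.4 CPM in the WT-labelled library (ratio 0.811, interval 0.496 to 1.34). Ltf, Lcn2, Ngp and Ly6g, whose promoters above hold a C/EBP-type motif, had ratios from 1.12 to 1.94 in the same cells. The intervals were 1.01 to 2.24 for Ltf, 1.06 to 1.17 for Lcn2, 0.752 to 1.96 for Ngp and 1.26 to 3.08 for Ly6g. A link between the level of Cebpb and these genes was not tested.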

How the data were processed

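Droplet single-cell RNA-seq was analysed in 1 library per label. The deposited matrix holds UMI counts per gene and cell, made by the authors with Cell Ranger 7.1.0, per the file headers; the genome was mm10 per the submitters' processing notes, with no annotation release named in the sources used here. Barcodes were assigned to libraries by matching their sequences to the deposited cell table. No replicate numbers pair the libraries.

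Barcodes under 200 genes, under 500 UMIs or over 20% mitochondrial UMIs were dropped. Scrublet called 0 doublets by its own threshold, which was taken as a failure, and the top-scoring cells were taken out instead, assuming a rate of 0.8% per 1000 cells (723 cells labelled SMYD3 knockdown, 603 labelled WT). Counts were scaled to 10000 per cell and logged. Both libraries were clustered together without the 10 genes (scanpy 1.11.5, leidenalg 0.10.2; 2000 variable genes, 30 components, 15 neighbours, resolution 1, giving 31 clusters), and neutrophil-like cells again at resolution 0.5, a step whose setting was chosen with the data in view. Clusters were named from marker lists, so a rebuilt name may differ from the study's own.

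UMIs were summed per class or state and library and divided by the total to give CPM. Intervals are exact (scipy 1.17.1). The ratio is CPM under the SMYD3 knockdown label over CPM under the WT label. Genes compared between libraries had at least 20 UMIs and 10 CPM in either. All 10 genes were named, with the 3 genes most correlated with each and up to 4 members of largest difference per pathway list. Not every gene that this rule allows is reported here. The members and lists were chosen with earlier results of these data known. No test between libraries was possible. The steps were tested on simulated data.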

Additional observations from a re-analysis of the deposited data

How the results depend on the processing

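The counts of genes, their median difference and the ratios of the 10 genes in neutrophil-like cells were recomputed under 14 other settings (13 for Ngp and 12 for Camp, where no finite ratio could be had in the others), 2 of them (the same mix of states, and finer states) chosen after seeing the data. Ratios by state, correlations and pathway lists were not. The number of the 10 genes highest in neutrophil-like cells stayed between 7 and 9 (9 as reported), and the number with the same highest state in both libraries between 7 and 9 (7 as reported); in cells with 0 C1q UMIs only 1 other class and 2 states could be compared. The number at least 1.5-fold higher under the SMYD3 knockdown label (2 as reported) was 1 with a per-cell marker gate (660 cells labelled SMYD3 knockdown and 258 labelled WT), 1 without doublet removal, 1 with the same mix of states and 0 in cells with 0 C1q UMIs (354 cells labelled SMYD3 knockdown and 168 labelled WT); it was 3 with at most 10% mitochondrial UMIs, with the mean of per-cell CPM and with scaling by the median ratio of genes. The number at least 1.5-fold lower (0 as reported) was 1 with the gate. The median log2 difference (0.20 as reported) was -0.21 in cells with 0 C1q UMIs, where 5 genes passed the minimum. Another constant in log2(CPM + 5), no minimum of UMIs or CPM, and finer states cannot change the ratio of a gene. These settings are thus no check of the ratios that follow. The Hdc ratio stayed under 1 in all 14 settings, from 0.668 to 0.783. Those of Ly6g (1.46 to 2.19), Padi4 (1.25 to 1.73), Pglyrp1 (1.12 to 1.40) and Lcn2 (1.01 to 1.20) stayed above 1. Those of Ltf (0.691 to 2.62), Ngp (0.902 to 1.35), Cd177 (0.861 to 1.09) and Cybb (0.394 to 1.17) fell on both sides of 1; Cybb was at 0.394 with the gate, which takes cells low in C1q RNA. The causes were not tested. No paired analysis was possible because each label has 1 library, and no replicate could be left out. Depth limits Camp, Ngp, Ltf, Ly6g and Padi4, each with under 100 UMIs in neutrophil-like cells of a library.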
